A study of Mus musculus with 6 samples.

Results

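The genes described here are 10 genes of the integrated stress response: Atf4, Ddit3, Trib3, Asns, Sesn2, Psat1, Phgdh, Ddit4, Eif2ak1 and Ppp1r15a. They were taken by name from 19938 genes named by a probe set of their own on the array, and each had 1 such probe set. The series holds 6 single-colour arrays covering 2 treatments at 3 time points. All groups carried the genotype Spic(igfp/igfp), so no array came from wild-type cells, and the sources used here do not say what the igfp allele carries. Marrow was grown with 20 ng/ml GM-CSF, which expands macrophages and dendritic cells, and with 10% serum. On day 6 it was given heme at 80 µM (a unit typed as µm in the labels) or vehicle. The vehicle solution, 0.15 M NaCl with 10% NH4OH, is recorded for heme and vehicle arrays alike. Adherent cells were lysed at 6, 24 or 72 h, so that the groups are heme and vehicle at each of these times, with 1 array in each. Neither the age of the mice nor any pooling of marrow is stated.

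The integrated stress response couples stress to protein synthesis through phosphorylation of the translation factor eIF2 on its alpha subunit. Kinases that sense different stresses add the phosphate: HRI, encoded by Eif2ak1, is held inactive by bound heme and is best known from erythroid cells, PERK responds to misfolded proteins in the endoplasmic reticulum, GCN2 to uncharged tRNA, and PKR to double-stranded RNA. The phosphate slows general translation but favours translation of the Atf4 mRNA, so that ATF4 protein can accumulate without a change in its transcript. ATF4 then pairs with C/EBP family proteins on genes for amino acid synthesis and import, tRNA charging and feedback, among them Asns, Trib3 and Ddit3.

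The letters TGATGNAA, the composite element that ATF4 and a C/EBP partner bind, were searched on both strands of RefSeq promoters of build GRCm38.p6, from 250 bases before to 50 after the annotated start. They occurred in 3.97% of all 32851 promoters and in at least 1 promoter of 4.51% of 27025 genes. Among the 10 members, all of which had a promoter in the table, 2 held a match, Asns (first base at -23 relative to the start) and Trib3 (first base at 14, in the transcribed part). Of the wider pathway lists described further on, 16 of 56 genes with a promoter held a match. Shown here are the 250 bases before the start of Asns, as the member with a match there, of Slc7a11, as the pathway gene with the largest response and a pair of matches, and of Chac1, as a further ATF4 target with a match. Letters in capitals mark the matches, on either strand.
Asns, chr6:7693210-7693459, minus strand: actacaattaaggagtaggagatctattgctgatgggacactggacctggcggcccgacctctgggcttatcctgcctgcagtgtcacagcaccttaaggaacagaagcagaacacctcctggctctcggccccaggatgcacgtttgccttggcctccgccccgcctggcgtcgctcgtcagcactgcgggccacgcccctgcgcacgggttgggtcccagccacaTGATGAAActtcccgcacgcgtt
Slc7a11, chr3:50443614-50443863, minus strand: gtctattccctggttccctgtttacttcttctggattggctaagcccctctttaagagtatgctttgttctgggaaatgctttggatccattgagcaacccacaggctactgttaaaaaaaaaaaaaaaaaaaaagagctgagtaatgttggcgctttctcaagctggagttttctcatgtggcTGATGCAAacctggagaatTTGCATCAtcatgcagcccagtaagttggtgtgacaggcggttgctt
Chac1, chr2:119350992-119351241, plus strand: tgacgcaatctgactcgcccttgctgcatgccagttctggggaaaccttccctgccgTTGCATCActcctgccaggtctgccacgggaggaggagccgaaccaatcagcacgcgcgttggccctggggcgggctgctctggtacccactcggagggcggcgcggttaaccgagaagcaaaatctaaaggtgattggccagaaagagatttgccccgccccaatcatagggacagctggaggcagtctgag
A match describes these letters only, and binding was not measured.

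Values are the deposited log2 expression values. A level below 5.38 (5.375, the median of all values on the 6 arrays) was not shown to be above background. Array medians ran from 5.34 to 5.45, the highest being that of heme at 6 h, and pairwise correlations across probe sets from 0.975 to 0.986. Macrophage markers were above that level on every array for 7 of 7 genes, and dendritic cell markers for 5 of 7, with Flt3 and Zbtb46 below it throughout. All 5 measured erythroid markers (Alas2, Klf1, Epor, Slc4a1 and Gata1) and all 5 T and NK cell markers lay below it on every array, as did 3 of 4 B cell markers. Of 5 stromal markers 4 reached it on some array. Their summed level was 8.23 with heme and 8.63 with vehicle at 6 h, 8.5 and 8.53 at 24 h, and 9.63 and 9.19 at 72 h. It was thus lower with heme at 6 h and higher at 72 h. The part of stromal cells in member and list differences that ran the same way was not tested. Neutrophil markers were lower at later times and stood apart at 24 h: on the log2 scale they summed to 13.48 with heme and 13.27 with vehicle at 6 h, 12.93 and 10.96 at 24 h, and 10.65 and 10.01 at 72 h. At 24 h all 8 of them were higher with heme, where 46.8% of all genes were. Of these, Ly6g, Elane and Retnlg were below 5.38 on both 24 h arrays, so their differences were not shown to be above background. At 24 h S100a8, S100a9, Camp and Ngp differed by 1.97, 2.13, 1.94 and 1.84, and Mpo by 0.20.

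No member passed the test. Ddit3 was lower on every heme array than on any vehicle array, as were 5.85% of all genes tested. Ppp1r15a was higher on every heme array than on any vehicle array, as were 5.4%. Asns was higher with heme by a similar amount at each time, and Phgdh was 2.32-fold lower at 72 h. Over the 3 time points 0 of 9 tested members passed an adjusted p of 0.05 in limma, against 1.72% of all 11516 genes tested (130 higher and 68 lower; 115 and 36 after cyclic loess). Only Ddit3 and Asns, 2 of 9, had an unadjusted p below 0.05, against 10.6% of all genes. A count of 0 near the share over all genes does not show that these transcripts were unaffected. At single times, where 1 array a group allows no test, 0 of 9 members differed by 2-fold or more at 6 h (1.63% of all genes), 0 of 9 at 24 h (1.91%) and 1 of 9, Phgdh, at 72 h (1.86%). Of the 9, 3 were higher with heme at all 3 times (Atf4, Asns and Ppp1r15a; 12.8% of all genes), 2 were lower at all 3 (Ddit3 and Psat1; 17.4%) and 4 had differing signs (Sesn2, Ddit4, Phgdh and Eif2ak1; 69.8%). Atf4 was counted as higher with differences of only 0.01 at 24 and 72 h. Its 72 h sign turned after a second quantile normalization (-0.04) and after cyclic loess (-0.03). The median difference of the 9, heme minus vehicle, was -0.33, 0.12 and 0.06 at 6, 24 and 72 h, beside medians over all genes of -0.10, -0.02 and 0.03. With the 6 h difference of Ddit4, which is only a bound, set at that bound, the 6 h median of the members was -0.24. After median-centring of the arrays the 6 h medians were -0.44 for the members and -0.22 for all genes. The tested members include every member except Trib3, whose levels never reached the background limit. In bulk RNA of this kind, fewer cells of a type and less RNA per cell cannot be told apart. The labels name no separate mouse or culture for an array, and time points are not replicates. The p-values therefore measure no variation between mice or cultures. They set the mean difference against its variation between times, which limma combines with the spread typical of all genes.

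**Figure D1:**
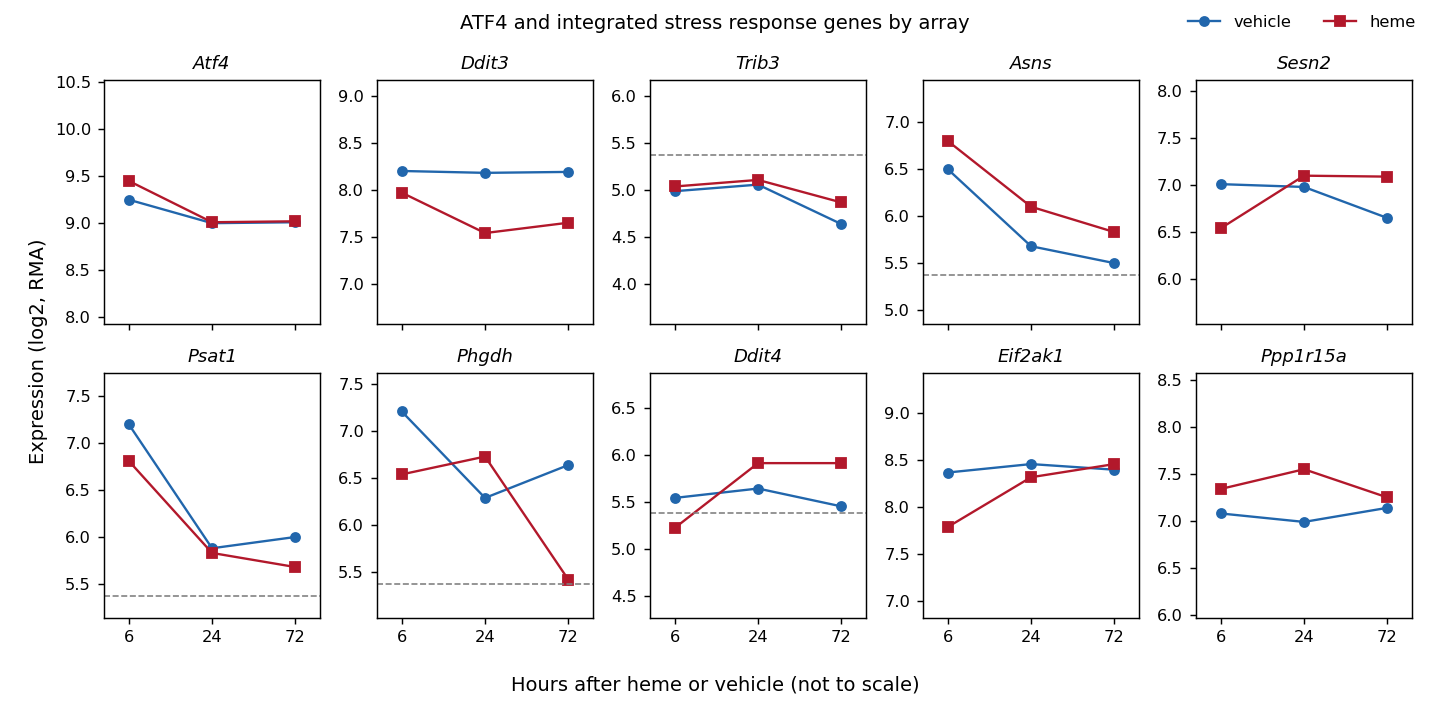
Log2 expression (vertical axis, own position but same span of units in each panel) of the 10 members at 6, 24 and 72 h (horizontal axis) on the heme arrays (red squares) and vehicle arrays (blue circles), 1 array per point; the dashed line, where in range, is the background limit of 5.38. Ddit3 lies lower with heme at all 3 times, from 7.54 to 7.97 against 8.18 to 8.20, while the Atf4 points of both treatments nearly coincide at 24 and 72 h.

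Eif2ak1 (probe set 10527252), the kinase whose activity heme itself restrains, was lowest on the 6 h heme array. Its level was 7.79 with heme and 8.37 with vehicle at 6 h, 8.32 and 8.46 at 24 h, and 8.46 and 8.40 at 72 h. The 3 vehicle arrays and the later heme arrays thus lay within 8.32 to 8.46, and the groups overlapped. The difference was -0.58 at 6 h, 1.5-fold lower, and -0.14 and 0.06 later, and its mean of -0.22 ± 0.33 (SD, n = 3 time points) did not pass the test (limma, adjusted p = 0.76, 95% interval -0.58 to 0.14). The median over all genes was itself -0.10 at 6 h. These values concern the transcript of the kinase and say nothing of its activity.

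Atf4 (10425364) itself barely differed between treatments. Its level was 9.45 with heme and 9.25 with vehicle at 6 h, 9.01 and 9.0 at 24 h, and 9.02 and 9.01 at 72 h. Both 6 h arrays were the highest of their treatment, and the 4 later arrays lay between 9.0 and 9.02. The mean difference was 0.07 ± 0.11 (SD, n = 3 time points; limma, adjusted p = 0.928), and its 95% interval, -0.23 to 0.38, corresponds to 0.854-fold to 1.3-fold. At 72 h the sign of the difference of 0.01 turned after a second quantile normalization (-0.04) and after cyclic loess (-0.03).

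Ddit3 (10366881) encodes CHOP, a transcription factor that ATF4 activates and that can promote cell death under lasting stress. Its level was 7.97 with heme and 8.20 with vehicle at 6 h, 7.54 and 8.18 at 24 h, and 7.65 and 8.19 at 72 h. The vehicle arrays varied little, and every heme array lay below every vehicle array, as it did for 5.85% of all genes tested. The transcript was 1.18-fold, 1.56-fold and 1.45-fold lower with heme at 6, 24 and 72 h. The mean difference of -0.47 ± 0.21 (SD, n = 3 time points) did not pass over all genes (limma, adjusted p = 0.199; unadjusted p = 0.00868; 95% interval -0.79 to -0.15). Without the 6 h pair of arrays it did (limma, -0.59, adjusted p = 0.0432), in a fit with 1 residual degree of freedom in which 521 genes passed. With the 24 h or the 72 h pair left out instead, it was -0.39 and -0.44 (limma, adjusted p = 0.925 and 0.36). The largest Ddit3 difference was at 24 h, where neutrophil markers were also farthest apart, and the part of those cells in it was not tested.

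Trib3 (10488608), a pseudokinase that restrains ATF4 and is among its most responsive targets in other systems, stayed below the background limit on all 6 arrays, between 4.87 and 5.11 with heme and between 4.64 and 5.06 with vehicle. No difference is therefore given for it, and it was not tested.

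Ppp1r15a (10563338) encodes GADD34, which directs a phosphatase to eIF2 and so ends the response. Its level was 7.34 with heme and 7.08 with vehicle at 6 h, 7.55 and 6.99 at 24 h, and 7.25 and 7.14 at 72 h. All heme arrays lay above all vehicle arrays, as for 5.4% of genes, though 7.25 and 7.14 are close. The mean difference of 0.31 ± 0.23 (SD, n = 3 time points) did not pass (limma, adjusted p = 0.509, 95% interval -0.02 to 0.64), and the difference of 0.56 at 24 h, 1.48-fold, was its largest. Ddit3 and Ppp1r15a are the only tested members whose groups did not overlap, and they differed in opposite directions.

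Among the enzymes, Asns (10543067), which makes asparagine and carries the TGATGAAA match shown above, was higher with heme by a similar amount each time. Its level was 6.80 with heme and 6.50 with vehicle at 6 h, 6.10 and 5.68 at 24 h, and 5.83 and 5.50 at 72 h. The later heme levels were below the earliest vehicle level, so the groups overlapped. The mean difference was 0.35 ± 0.06 (SD, n = 3 time points), or 1.24-fold, 1.34-fold and 1.26-fold at 6, 24 and 72 h. It did not pass (limma, adjusted p = 0.34; unadjusted p = 0.0251; 95% interval 0.05 to 0.65).

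Psat1 (10466410) and Phgdh (10500529) encode enzymes of serine synthesis from a glycolytic intermediate. Psat1 was 6.81 with heme and 7.20 with vehicle at 6 h, 5.83 and 5.88 at 24 h, and 5.68 and 6.00 at 72 h. It was lower with heme at each time, with a mean of -0.25 ± 0.18 (SD, n = 3 time points; limma, adjusted p = 0.626). Phgdh, the enzyme of the first step, was the most uneven member. Its level was 6.54 with heme and 7.21 with vehicle at 6 h, 6.73 and 6.29 at 24 h, and 5.42 and 6.64 at 72 h. The differences were -0.67, 0.44 and -1.22, and the last is 2.32-fold lower with heme. At 5.42 the 72 h heme level lay just above the background limit. The mean was -0.48 ± 0.84 (SD, n = 3 time points; limma, adjusted p = 0.619), and the change of sign between times, with a span past 2-fold as in 4.71% of all genes, was not tested, since 1 array a group leaves no residual degrees of freedom for it.

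Sesn2 (10516932) and Ddit4 (10369290) both encode proteins that dampen the growth kinase mTORC1, and their differences had the same order in time. Sesn2 was 6.54 with heme and 7.01 with vehicle at 6 h, 7.10 and 6.98 at 24 h, and 7.09 and 6.65 at 72 h. Ddit4 was 5.22 with heme and 5.54 with vehicle at 6 h, 5.91 and 5.64 at 24 h, and 5.91 and 5.45 at 72 h. Each was lower with heme at 6 h and higher at 24 and 72 h. The Sesn2 differences were -0.46, 0.12 and 0.45. Those of Ddit4 were 0.27 and 0.46 at 24 and 72 h, while at 6 h the heme level was below the background limit and the decrease was at least 0.17 (log2 difference -0.17). Neither passed over the 3 time points (limma, adjusted p = 0.976 for Sesn2 and 0.893 for Ddit4).

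**Figure D2:**
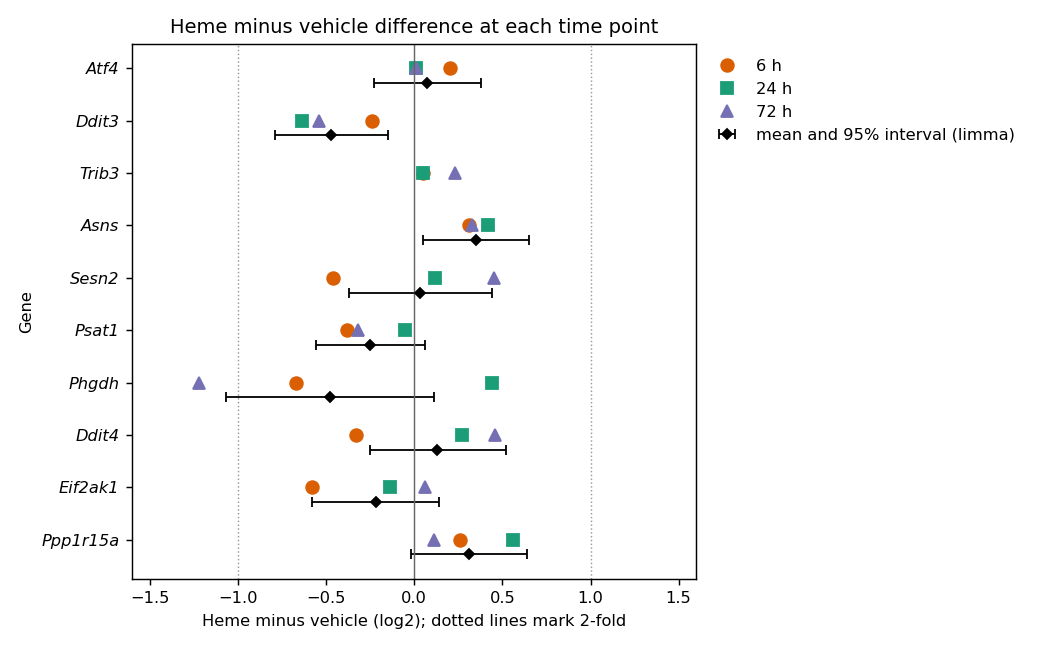
Heme minus vehicle difference (log2, horizontal axis) of each member (vertical axis) at 6 h (circles), 24 h (squares) and 72 h (triangles), 1 pair of arrays per point; black diamonds and bars give the mean over the 3 time points and its 95% interval from limma, which Trib3 lacks because it was not tested. Only the 72 h value of Phgdh, at -1.22, lies beyond the dotted 2-fold lines, and the intervals of Ddit3 and Asns exclude 0 before adjustment over all genes. The Trib3 points come from levels below the background limit. The 6 h point of Ddit4 is drawn at -0.33, where the limit allows only a bound of -0.17.

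Time in culture moved some members more than heme did. Psat1 fell by 1.15 from 6 to 24 h over both treatments and by 1.16 from 6 to 72 h (limma, adjusted p = 0.0327 and 0.00364), with changes at 72 h of -1.13 with heme and -1.19 with vehicle. Asns fell by 0.98 from 6 to 72 h (limma, adjusted p = 0.00667), with -0.97 with heme and -0.99 with vehicle. These were the only members to pass: 1 of 9 fell at 24 h, against 0.373% of all genes lower (0.599% in either direction), and 2 of 9 fell at 72 h, against 3.53% (6.59%). At an unadjusted p below 0.05 it was 2 of 9 at 24 h, against 12.9% of all genes, and 3 of 9 at 72 h, against 18.5%. After cyclic loess 0 of 9 passed at 24 h (limma, 3 of 9 at an unadjusted p below 0.05), and the Psat1 value there was -1.14 (limma, adjusted p = 0.051). For Atf4 the values were -0.34 and -0.33, neither past the threshold (limma, adjusted p = 0.433 and 0.332). Neutrophil markers declined over the same hours, and their part in these falls was not tested.

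The wider pathway was followed through 7 lists with 73 genes, the 10 members included, of which 69 had a probe set and 62 were tested. In these, 2 of 62 rose with heme, 0 fell and 60 did not pass (limma), against 1.13% of all genes higher and 0.59% lower. At an unadjusted p below 0.05 it was 9 of 62 (limma), against 10.6% of all genes. The same 10.6% is the share to set beside the unadjusted count of each list below. The genes that rose were Slc7a11 and Slc3a2, the subunits of the cystine and glutamate exchanger. Slc7a11 is also a known target of the antioxidant factor NRF2, and membership of the list does not say which factor acts.

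Among the kinases and their regulators, 0 of 9 tested genes passed, and 1, Impact, had an unadjusted p below 0.05 (limma). Eif2ak2, the gene of PKR and itself induced by interferon, differed by 0.60, -0.34 and 0.03 at 6, 24 and 72 h. Eif2ak3, which encodes PERK, differed by -0.28, -0.27 and 0.19, and Eif2ak4, which encodes GCN2, by 0.32, 0.02 and -0.04. Impact, an inhibitor of GCN2 activation, was 8.85, 8.63 and 9.33 with heme and 8.54, 8.40 and 8.54 with vehicle at 6, 24 and 72 h. All its heme arrays lay above its vehicle arrays, as for 5.4% of all genes. The mean difference of 0.44 ± 0.30 (SD, n = 3 time points) did not pass (limma, adjusted p = 0.292). Oma1, a mitochondrial protease that can relay stress to HRI, differed by -0.13, -0.26 and -0.02.

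Of the subunits of eIF2 and its exchange factor eIF2B and the phosphatase genes, 0 of 9 passed, also 0 at an unadjusted p below 0.05 (limma). Their medians were -0.17, -0.18 and 0.20 at 6, 24 and 72 h, with 7 of 9 lower at 6 h (63.5% of all genes), 7 of 9 lower at 24 h (53.2%) and 9 of 9 higher at 72 h (55.3%), and these counts were the same after a second quantile normalization, median-centring and cyclic loess. A second probe set of Ppp1r15b, the constitutive counterpart of Ppp1r15a, gave -0.18, 0.18 and -0.25, against -0.17, -0.18 and 0.13 for the one counted. A second probe set of the eIF2 subunit Eif2s2 gave -0.01, 0.22 and 0.26, against 0.28, -0.21 and 0.32. The counts of this list thus depend on the probe set taken. The eIF2B subunits Eif2b1 and Eif2b4 differed by -0.17 and -0.46 at 6 h and by 0.12 and 0.20 at 72 h.

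Of the transcription factors, 0 of 8 passed and 1, Ddit3, had an unadjusted p below 0.05 (limma). Cebpg, a C/EBP partner of ATF4, was lower with heme by 0.46, 0.37 and 0.10 (log2 differences of -0.46, -0.37 and -0.10; limma, adjusted p = 0.492). Atf5, a relative of ATF4 tied to mitochondrial stress, differed by -0.09, 0.34 and 0.26 (limma, adjusted p = 0.821).

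Among 11 tested enzymes of amino acid and folate metabolism 0 passed and 3 had an unadjusted p below 0.05 (limma), against 10.6% of all genes. These were Asns and Mthfd2 on the higher side and Got1 on the lower. Mthfd2, a mitochondrial folate enzyme, was 7.55 with heme and 7.50 with vehicle at 6 h, 7.30 and 6.40 at 24 h, and 7.08 and 6.28 at 72 h. It was lower at the later times, more so with vehicle, and the differences were 0.05, 0.90 and 0.80 (limma, adjusted p = 0.215). Without the 6 h pair it passed (limma, 0.847, adjusted p = 0.00104), in the same fit that called 521 genes, whereas without the 24 h or the 72 h pair it was 0.425 and 0.473 (limma, adjusted p = 0.951 and 0.422). Got1, the cytosolic aspartate aminotransferase, was 9.06, 9.10 and 8.76 with heme and 9.77, 9.36 and 9.45 with vehicle (limma, mean difference -0.55 ± 0.25, adjusted p = 0.134). All its heme arrays lay below its vehicle arrays, as for 5.85% of all genes. Enzymes of this list therefore lay on both sides of vehicle, with medians of -0.37, 0.16 and -0.12 that kept their sign under all 3 other scalings. The 24 h median of 0.16 is the difference of Gpt2. Its 24 h levels, 5.12 with heme and 4.96 with vehicle, were both below the background limit. For Cbs at 24 h only the heme level reached the limit, so its difference was at least 0.08. The sign of the 24 h median was thus not shown to be above background.

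Amino acid transporters held the only called genes. Slc7a11 (10498024) was 11.25 with heme and 9.19 with vehicle at 6 h, 11.18 and 9.03 at 24 h, and 10.38 and 8.76 at 72 h. It rose by 1.95 ± 0.28 (SD, n = 3 time points; limma, adjusted p = 4.9e-04), and its promoter holds 2 of the matches shown above. Slc3a2 (10465772), the heavy chain shared by several transporters, was 10.66 with heme and 9.81 with vehicle at 6 h, 10.50 and 9.52 at 24 h, and 10.38 and 9.89 at 72 h. It rose by 0.77 ± 0.25 (SD, n = 3 time points; limma, adjusted p = 0.0358), but not without the 24 h pair (limma, 0.673, adjusted p = 0.497) or without the time term (adjusted p = 0.146). Slc7a5, which joins the same heavy chain to import large neutral amino acids, was 8.06 with heme and 8.64 with vehicle at 6 h, 7.14 and 7.34 at 24 h, and 6.19 and 6.40 at 72 h. It was lower with heme (limma, mean difference -0.33 ± 0.22, adjusted p = 0.455) and fell by 2.05 from 6 to 72 h over both treatments (limma, adjusted p = 3.32e-04). The sodium-coupled transporter Slc38a2 fell with time as well, by 1.18 (limma, adjusted p = 0.00364), as did Slc7a1 and Slc1a5. With heme, Slc1a5 differed from vehicle by 0.22, 0.35 and -0.19 (limma, adjusted p = 0.886), and Slc6a9, a glycine transporter, was above the background limit on 1 array only. Of 7 tested transporters, 4 thus fell from 6 to 72 h, against 3.53% of all genes. Neutrophil markers were lower at 72 h than at 6 h as well, and their part in these falls was not tested.

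**Figure D3:**
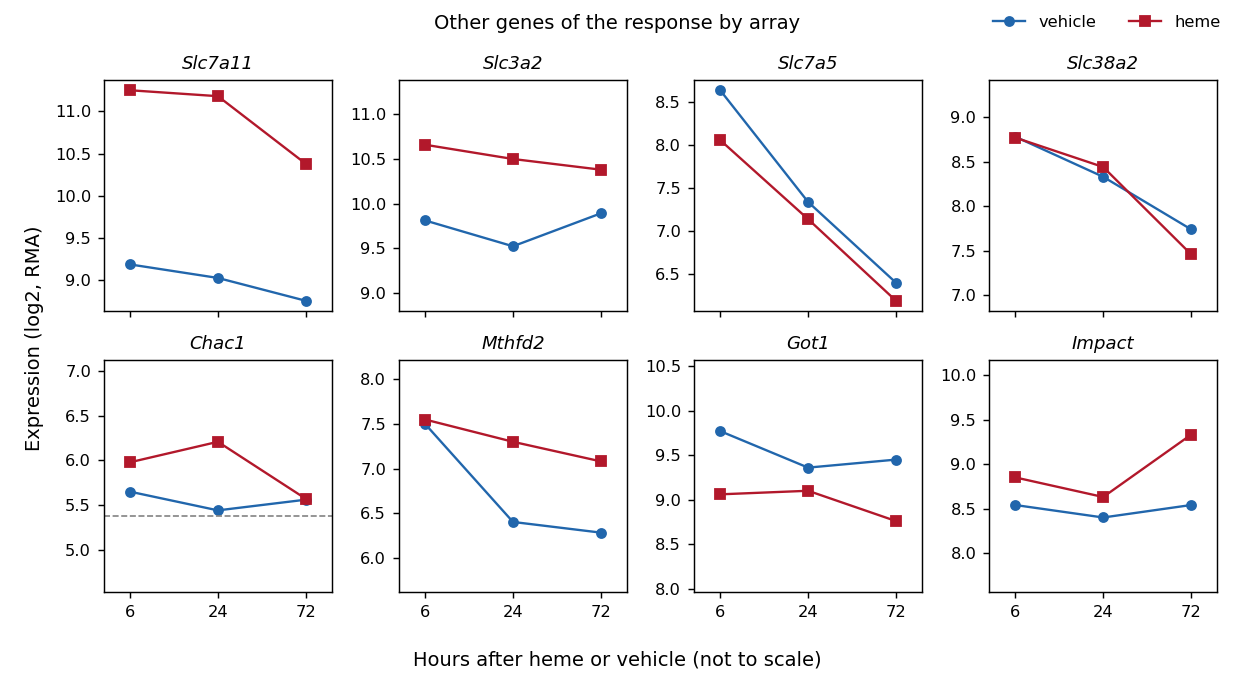
Log2 expression (vertical axis) of 8 other genes of the response at 6, 24 and 72 h (horizontal axis) on the heme arrays (red squares) and vehicle arrays (blue circles), 1 array per point; the dashed line is the background limit. Slc7a11 and Slc3a2 lie higher with heme at each time, while Slc7a5 and Slc38a2 decline with time in both treatments.

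The cytosolic aminoacyl-tRNA synthetases and the tRNA exporter Xpot, common ATF4 targets, lay lower together with heme at 6 h. All 12 tested genes were lower with heme at 6 h (63.5% of all genes were), 11 of 12 at 24 h (53.2%), and 2 of 12 at 72 h (44.7%), where 10 of 12 were higher. Their medians were -0.31, -0.15 and 0.12, with the same signs under the other scalings, but the counts were 11, 8 and 9 of 12 after cyclic loess and 11, 8 and 8 after a second quantile normalization. None of the 12 passed over the 3 time points, and 1, Wars, had an unadjusted p below 0.05 (limma). Wars, which charges tRNA with tryptophan and is also induced by interferon gamma, differed by -0.36, -0.32 and -0.63 (limma, adjusted p = 0.23), whereas Iars and Yars differed by -0.62 and -0.51 at 6 h and by 0.06 and 0.08 at 72 h. A second probe set of Iars gave -0.40, 0.01 and 0.26.

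Among effectors of growth and redox control 0 of 6 tested genes passed, also 0 at an unadjusted p below 0.05 (limma). Leaving out Stc2, a secreted glycoprotein that was kept only through its level on the 24 h heme array, 5 of 5 were higher with heme at 24 h, where 46.8% of all genes were. Neutrophil markers were higher with heme on the same arrays (12.93 against 10.96), and their part in this was not tested. Chac1, which degrades glutathione, was 5.98 with heme and 5.65 with vehicle at 6 h, 6.21 and 5.44 at 24 h, and 5.57 and 5.56 at 72 h (limma, mean difference 0.37 ± 0.38, adjusted p = 0.474). Vegfa, the vascular growth factor, differed by 0.02, 0.23 and 0.39 (limma, adjusted p = 0.715) and rose by 1.18 from 6 to 72 h over both treatments (limma, adjusted p = 0.00347), as did 3.06% of all genes. Fgf21 and Vldlr did not reach the background limit on any array. Of the 16 pathway genes with a TGATGNAA match in the promoter window, 12 were tested. Of these 1, Slc7a11, rose and 0 fell (limma), against 1.13% of all genes higher and 0.59% lower. At an unadjusted p below 0.05 it was 3 of 12 (limma), against 10.6%. The mean differences of those 12 ran from -0.55 to 1.95 with a median of -0.01, and 6 of 12 were above 0.

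As a comparison, chaperones and related genes of the endoplasmic reticulum that ATF6 and XBP1 control were counted the same way. Of 14 tested, 0 passed and 2, Sdf2l1 and Dnajb9, had an unadjusted p below 0.05 (limma), both on the lower side, against 10.6% of all genes in either direction. All 14 were lower with heme at 24 h (53.2% of all genes were), with a median of -0.36 (12 of 14 after cyclic loess, -0.29), beside medians of 0.04 at 6 h (-0.07 after median-centring) and -0.10 at 72 h. A second probe set of Pdia4, a disulfide isomerase, gave 0.96, -0.09 and 0.53. Xbp1 itself differed by -0.36, -0.27 and -0.21 (limma, adjusted p = 0.524). Neutrophil markers were farthest apart at 24 h too, and their part in the 24 h shift was not tested.

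**Figure D4:**
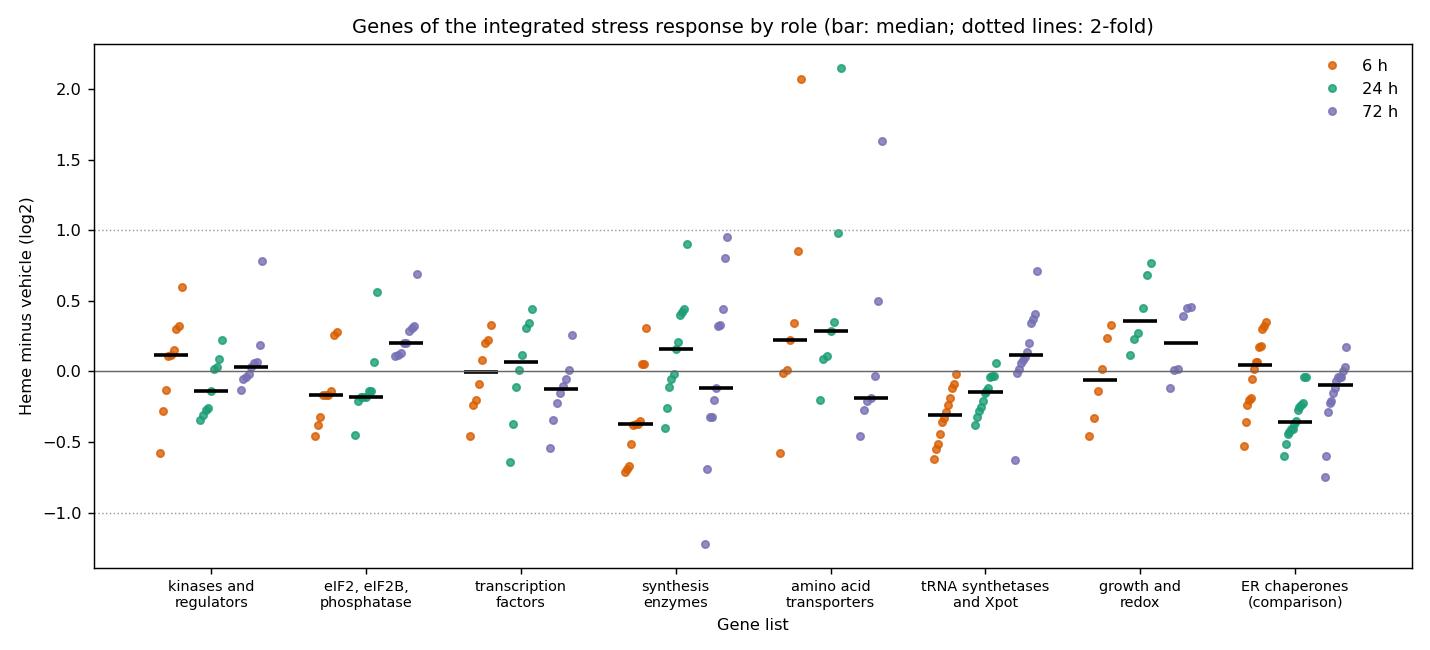
Heme minus vehicle difference (log2, vertical axis) of each tested gene, 1 point per gene, in the 7 lists of the integrated stress response and the comparison list of endoplasmic reticulum chaperones (horizontal axis) at 6 h (orange), 24 h (green) and 72 h (violet); black bars are medians and dotted lines mark 2-fold. Slc7a11 among the transporters, at 2.07, 2.15 and 1.63, is the only gene above the upper line, and the tRNA synthetases and Xpot lie below 0 at 6 h (11 of 12 after cyclic loess). Points and medians include differences from levels below the background limit.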

How the data were processed

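The authors deposited log2 expression values made by RMA; quantile normalization in ArrayStar is named in the series' design text and RMA in the submitters' processing notes, with versions not given in the sources used here. RMA compresses differences of dim probe sets. Scanner files were not used here. The platform annotation gave 1 gene for 21789 of 35556 probe sets, several for 1621 and none for 12146; 21698 of the first kind matched GRCm38.p6 by gene identifier. The probe set with the highest mean over 6 arrays was taken for each gene. A gene needed 1 array at or above the median of all values, and 11516 genes met this. limma 3.58.1 in R 4.3.3 (two-sided, Benjamini-Hochberg adjustment over all genes kept) modelled treatment plus time; residual degrees of freedom were 2, and prior ones 7.17. Arrays of the same hour deviated together from their treatment means (correlations of 0.562, 0.215 and 0.531 at 6, 24 and 72 h), and the time labels give the pairing. The fit was also run on simulated data with known changes, each the same at all 3 times and added to independent noise. Changes that differ between times were not simulated, so the shares recovered do not apply to them. In the simulated data the fit recovered 9.2% of changes of 0.5 (log2) and 87.2% of changes of 1, so most changes of 0.5 would be missed. The number of arrays limits the precision. Members and lists were chosen with earlier results of these data known. Named are all members, list genes past the test and up to 3 others per list with the largest absolute mean difference, and the 5 genes nearest to each of 3 members. Eif2ak2, Eif2ak3, Eif2ak4, Eif2s2, Slc38a2, Slc7a1, Mthfd1l, Xpot, Fgf21, Vldlr, Ppp1r15b and Pdia4 fall outside this rule and were chosen after their values were seen, as was the motif. Alternatives covered normalization, level filter, probe sets, model terms and leaving out each time. Setting Ddit4 at its bound and leaving out Stc2 were alternatives chosen after seeing the data.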

Additional observations from a re-analysis of the deposited data

Results flagged for a closer look

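For 3 genes of the pathway the heme minus vehicle difference had opposite signs at different times and spanned 2-fold or more, as it did for 4.71% of all genes tested; with 1 array a group this difference between times was not tested. Phgdh ran from -1.22 at 72 h to 0.44 at 24 h. The folate enzyme Mthfd1l ran from -0.37 at 6 h to 0.95 at 72 h. The tRNA exporter Xpot ran from -0.38 at 24 h to 0.71 at 72 h.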

How the results depend on the processing

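Leaving out each pair of arrays in turn gave 0 to 1 called members (limma; the 1, without the 6 h pair, was Ddit3) and 1 to 4 called pathway genes, which were 4 without the 6 h pair (prior of 46.9 degrees of freedom) and 1, Slc7a11, without the 24 h pair. Without the time term 1 pathway gene passed in place of 2. Over all genes, 198 passed, against 18 without the time term, and the count was 521 in the absence of the 6 h pair but 12 in that of the 24 h pair. For the fall from 6 to 24 h, 0 members passed after cyclic loess in place of 1. At 1.5-fold, 1 member was past the threshold at 6 h (Phgdh) and 1 at 24 h (Ddit3), in place of 0. At 72 h 0 members were past 4-fold, and 0 past 2-fold with an offset of 16 on the linear scale, in place of 1. Medians of the members moved by less than their SD between times (0.244) under every alternative run, but that SD exceeds the medians at 24 and 72 h. The median of the members' mean differences, 0.034, turned to -0.003 after median-centring. It was -0.093 when all 6 arrays had to reach the median of all values, and -0.009 and -0.114 without the 24 h and the 72 h pair. Adjusted p-values of Ddit3 ran from 0.0432 to 0.925 and those of Asns from 0.304 to 0.977 (limma). The treatment was fitted with time, which pairs the arrays, as a block; without it 0 members passed and 2 had an unadjusted p below 0.05 (limma). Levels near the background limit, as for Ddit4 and Phgdh at 72 h, limit the size of those differences.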

Other observations

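Among named genes kept, those whose 3 differences lay nearest to those of Ddit3 were Catsperd, Cald1, Dock2, Zfp563 and Alcam, at Euclidean distances of 0.057 to 0.121 (log2, over 3 differences). For Eif2ak1 they were Zfp358, Eapp, Imp4, Elmod2 and Tpd52, at 0.031 to 0.048. For Phgdh no gene lay closer than 0.451, the distance of Ltc4s, the enzyme that makes leukotriene C4. Its differences were -1.02, 0.32 and -0.95 at 6, 24 and 72 h. Tmem151a, H1f5, Gchfr and Cetn4 followed, at 0.576 to 0.625. Tmem151a (0.15) and Cetn4 (0.27) were, like Phgdh, higher with heme at 24 h, whereas H1f5 (-0.13) and Gchfr (-0.16) were lower. A near match over 3 values is a description only.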
